A study of Mus musculus with 14 samples.

Results

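Interleukin receptor genes of natural killer (NK) cells are described here: Il2rb, Il2rg, Il18r1, Il18rap and Il10ra, named as a list and read in the NK count table across its 3 groups. They are 5 of the 10210 genes in that table. All 5 passed the filter on low counts, which 8471 genes passed, and none of the 5 had fewer than 78 counts in any NK library. The series sequenced the 3' ends of polyA RNA from sorted mouse cells to ask what state NK cells are in inside a mammary tumour. Healthy spleen NK cells came from BALB/c mice, 8 weeks old, without a tumour (3 libraries). Tumour-bearing spleen NK cells came from spleens of BALB/c females that had received 100000 4T1-GFP cells in the left lower mammary fat pad at 8 weeks of age (4 libraries), and tumour NK cells came from such tumours (4 libraries). 4T1 is a mouse mammary carcinoma line that grows in BALB/c mice, here carrying green fluorescent protein, so the tumours are transplants of 1 line rather than tumours that arose in the gland. The time from injection to dissection and the sex of the healthy mice are not given in the sources used here. Each NK library was sorted as negative for GFP, EPCAM, CD3, CD31 and CD14 and positive for CD45 and NKp46. Tumours were digested for 20 min at 37 °C with collagenase A and DNase while spleens were crushed and left for 5 min on ice in a buffer that lyses red cells, so tissue and dissociation cannot be told apart in any comparison of tumour with spleen. The design text calls the replicates independent without naming animals, so the p-values measure the spread between these libraries.

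NK cells depend on cytokines that they read through receptors of several families. The proteins of Il2rb and Il2rg, the beta chain and the common gamma chain, form the signalling receptor for interleukin 15 (IL-15) and interleukin 2 (IL-2), which keep NK cells alive and make them divide and arm themselves through JAK kinases and STAT5. Il18r1 encodes the chain that binds interleukin 18 (IL-18) and Il18rap the accessory chain needed to signal through MYD88 and IRAK kinases, a route by which NK cells are brought to make interferon gamma together with interleukin 12. Il10ra encodes the ligand-binding chain of the receptor for interleukin 10 (IL-10), which pairs with the broadly used chain of Il10rb and signals through JAK1, TYK2 and STAT3.

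The genes lie on 4 chromosomes of GRCm38 (the build also called mm10). In GENCODE's annotation Il2rb spans chr15:78479256-78495271 on the minus strand, Il2rg chrX:101264378-101268255 on the minus strand and Il10ra chr9:45253837-45269149 on the minus strand. Il18r1 at chr1:40465552-40500854 and Il18rap at chr1:40515362-40551705 are neighbours on the plus strand, 14507 bases apart. The stretches in front of these neighbours are shown because the genes lie side by side and yet did not follow each other over the 11 NK libraries (r = -0.11). Both had lower means in tumour-bearing than in healthy spleens. RefSeq's GRCm38 table held promoter windows for 3 of the 5 genes, in 5 windows. The first line holds the 250 bases before the first Il18r1 start (chr1:40465302-40465551), the next a stretch outside annotated exons in front of a later Il18r1 start (chr1:40465811-40465969), and the last the 250 bases before Il18rap (chr1:40515112-40515361), all on the plus strand and read 5′ to 3′. Capitals mark a match to the STAT motif.
Il18r1 first start: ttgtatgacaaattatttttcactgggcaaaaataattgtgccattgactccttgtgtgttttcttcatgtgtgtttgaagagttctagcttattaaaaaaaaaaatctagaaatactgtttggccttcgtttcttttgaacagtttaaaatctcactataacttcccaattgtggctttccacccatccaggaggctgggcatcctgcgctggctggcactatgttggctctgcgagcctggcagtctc
Il18r1 later start: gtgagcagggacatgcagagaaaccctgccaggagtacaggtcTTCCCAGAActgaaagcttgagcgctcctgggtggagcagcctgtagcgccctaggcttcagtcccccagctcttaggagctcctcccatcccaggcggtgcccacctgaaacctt
Il18rap: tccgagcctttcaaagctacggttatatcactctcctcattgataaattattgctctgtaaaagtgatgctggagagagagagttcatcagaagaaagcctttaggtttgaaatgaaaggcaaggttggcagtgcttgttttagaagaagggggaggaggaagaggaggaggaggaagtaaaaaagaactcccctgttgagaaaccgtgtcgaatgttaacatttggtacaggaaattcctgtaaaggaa
Each window was searched on both strands for 4 motifs: STAT as TTCNNNGAA, T-box as AGGTGTGA, RUNX as TGTGGT and AP-1 as TGANTCA. Among 32851 windows of the same length in the table, STAT was found in 7.02%, T-box in 1.12%, RUNX in 14% and AP-1 in 6.75%. The window of the later Il18r1 start held 2 STAT matches, of which the printed stretch holds 1. The other windows of Il18r1 and that of Il18rap held none of the 4 motifs, and that of Il2rg held 1 RUNX match, so no match lay over a match to another motif. These are letter matches in short windows and no binding was measured.

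Total counts over listed genes ran from 559688 to 1966963 in the NK libraries. On these raw totals a count of 0 allows a level of up to 1.53 to 5.36 CPM. All other CPM of NK libraries are counts divided by the library's TMM-scaled size, and the values compare libraries for 1 gene, not genes with each other. In a principal component analysis the second component, with 15.3% of the variance, set healthy spleen replicate 1 and tumour-bearing spleen replicates 1 and 2 (12.65 to 49.93) apart from the other 4 spleen libraries (-24.92 to -6.51). This division of the spleens crosses both groups, matches no label, and is called the spleen split below. Healthy spleen replicate 1, at its far end (49.93), had the lowest total of the NK libraries (559688 counts, beside 1775355 and 1210219 in healthy replicates 2 and 3). Whether depth bears on the split was not tested. Of 11 NK marker genes 10 were listed, with a summed level of 23400 to 24500 CPM in healthy spleens, 22200 to 25200 CPM in tumour-bearing spleens and 16200 to 20500 CPM in tumours. This sum was mostly Gzma (means 17180, 17490 and 13270 CPM in the same order). Summed markers of several cell types outside the gate were higher in each tumour library than in each spleen library, while those of T cells, B cells and fibroblasts were not. In healthy spleens, tumour-bearing spleens and tumours, respectively, the summed range was 4.62 to 14.9, 13.7 to 21.6 and 31.4 to 153 CPM for macrophages and monocytes (7 of 11 listed; Csf1r at 0 in all 7 spleen libraries and no listed marker at 0 throughout the tumours). It was 0.535 to 7.7, 0.723 to 11.2 and 59.8 to 158 CPM for neutrophils (3 of 7; Retnlg at 0 in all 7 spleen libraries), and 43.1 to 81.7, 72 to 127 and 265 to 380 CPM for dendritic cells (4 of 9). In tumours the dendritic cell sum was mostly H2-Ab1, H2-Aa and Cd74 (means 131.9, 117.9 and 70 CPM), beside 15.4 CPM for Zbtb46. The summed range was 12.3 to 15.5, 25.7 to 40.1 and 108 to 140 CPM for mast cells and basophils (2 of 5). In tumours this sum was mostly Kit (mean 122.4 CPM), beside 1.29 CPM for Mcpt8. For epithelial or carcinoma cells (2 of 7) the range was 0 to 3.08, 0 to 2.79 and 27.7 to 54.9 CPM. In tumours that sum was mostly Cdh1 (mean 41.98 CPM), beside 4.058 CPM for Epcam. Which cells carried H2-Ab1, H2-Aa, Cd74, Kit and Cdh1 was not tested. The single endothelial gene of 5, Pecam1, was at 41.6 to 80.9, 74.8 to 94.2 and 139 to 202 CPM. Markers of type 1 innate lymphoid cells, which also carry NKp46, were at 56.7 to 120, 38.1 to 126 and 296 to 324 CPM (6 of 7). T cell markers were at 43.1 to 79.2, 99.4 to 149 and 64.7 to 106 CPM (3 of 8), B cells at 3.21 to 9.25, 3.91 to 6.1 and 1.45 to 3.8 CPM (1 of 7), fibroblasts at 4.95 to 12.8, 3.05 to 11.7 and 2.9 to 21.3 CPM (2 of 8), and no erythroid marker of 6 was listed. The part of these markers in the tumour results below was not tested, and in bulk libraries fewer cells of a type and less RNA per cell cannot be told apart.

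Il2rb, the beta chain that gives the IL-2 and IL-15 receptor its signalling tail, was lowest in healthy spleen NK cells and highest in tumour NK cells. Its level was 676.5, 867.3 and 988.8 CPM in healthy spleen replicates 1 to 3. It was 1053, 1008, 1141 and 1307 CPM in tumour-bearing spleen replicates 1 to 4, and 1585, 1400, 1140 and 1704 CPM in tumour replicates 1 to 4. Every healthy library lay below every library of the other groups, while tumour replicate 3 fell inside the range of the tumour-bearing spleens. The means were 844.2 ± 157 (SD, n = 3), 1127 ± 132 (SD, n = 4) and 1457 ± 246 CPM (SD, n = 4). Tumour exceeded healthy spleen 1.72-fold (log2 fold change 0.78, SE 0.176, edgeR's quasi-likelihood adjusted p 0.00211). Neither neighbouring step passed the test: tumour minus tumour-bearing spleen was 0.37 (SE 0.16, adjusted p 0.0896 in edgeR's test) and tumour-bearing minus healthy spleen was 0.41 (SE 0.174, adjusted p 0.345). Without tumour replicate 3, the lowest of its group, the first step was 0.46 with an adjusted p of 0.0381.

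**Figure D1:**
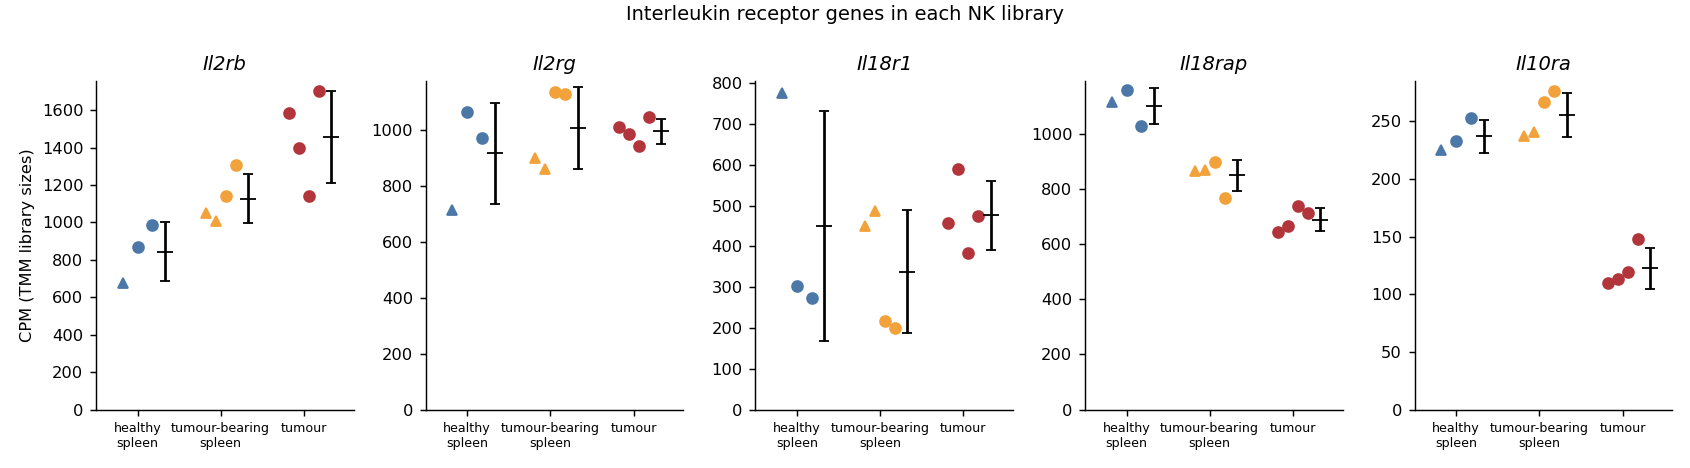
CPM on TMM library sizes (vertical axes, from 0) of the 5 receptor genes in each NK library by group, with the mean and SD as a bar beside the points; triangles are the 3 spleen libraries on one side of the spleen split. Il2rb steps up and Il18rap steps down from healthy spleen to tumour, Il10ra is at 109.8 to 148.3 CPM in tumours against 225 to 276.3 CPM in spleens, and Il18r1 follows the triangles.

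Il2rg, the common gamma chain shared by the receptors for IL-2, IL-15, IL-7 and IL-21 among others, showed no difference between groups beyond its spread. It stood at 711.9, 1061 and 971.4 CPM in healthy spleens, 898.7, 860.1, 1134 and 1128 CPM in tumour-bearing spleens, and 1008, 982.5, 939.8 and 1045 CPM in tumours. The ranges of the groups overlapped in each pairing, and the tumour libraries were the most alike (993.9 ± 44.2 CPM, SD, n = 4) beside healthy spleens (914.8 ± 181, n = 3) and tumour-bearing spleens (1005 ± 146, n = 4). The 95% interval of the log2 difference ran from -0.33 to 0.30 for tumour minus tumour-bearing spleen, from -0.23 to 0.46 for tumour minus healthy spleen and from -0.21 to 0.47 for tumour-bearing minus healthy spleen. Among the 7 spleen libraries the level moved with the split, at 711.9 to 898.7 CPM on the side of the 3 libraries and 971.4 to 1134 CPM on the other. The ratio of Il2rb counts to Il2rg counts, which no scaling of libraries can move, was 0.817 to 1.02 in healthy spleens, 1.01 to 1.17 in tumour-bearing spleens and 1.21 to 1.63 in tumours. Tumour libraries lay above all spleen libraries in this ratio, which was not tested.

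Il18rap, the accessory chain of the IL-18 receptor, fell from healthy spleen to tumour. Its level was 1113, 1156 and 1029 CPM in healthy spleens, 863.6, 866.3, 895.6 and 766.6 CPM in tumour-bearing spleens, and 642.7, 663.7, 735.9 and 712.1 CPM in tumours. The 3 groups did not overlap, and their order was healthy spleen (1099 ± 64.3, SD, n = 3), tumour-bearing spleen (848 ± 56.2, n = 4) and tumour (688.6 ± 42.9, n = 4). Tumour was 1.6-fold lower than healthy spleen (log2 fold change -0.67, SE 0.135, edgeR's quasi-likelihood adjusted p 0.000786). The neighbouring steps did not pass: -0.30 (SE 0.126, adjusted p 0.0812 in edgeR's test) for tumour minus tumour-bearing spleen and -0.37 (SE 0.135, adjusted p 0.222) for tumour-bearing minus healthy spleen. Both steps passed in DESeq2 (-0.31, adjusted p 0.0126, and -0.38, adjusted p 0.0259). The first step also passed under upper-quartile scaling (-0.40, adjusted p 0.0179) and raw library totals (-0.42, adjusted p 0.00933), scalings that shift the median of all genes by -0.10 and -0.12 there.

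Il18r1, the IL-18-binding chain encoded next to it, differed among the spleen libraries along the split described above, and the fit of all NK libraries called it in no comparison. It was at 775.1, 303.9 and 273.2 CPM in healthy spleens, 449.7, 487.8, 217.2 and 199.6 CPM in tumour-bearing spleens, and 456.6, 589.8, 384.2 and 473.5 CPM in tumours. The high spleen libraries were healthy replicate 1 and tumour-bearing replicates 1 and 2, at 449.7 to 775.1 CPM, a mean 2.3-fold that of the other 4 at 199.6 to 303.9 CPM, and the tumour libraries overlapped with the high side. The other 4 receptor genes had ratios of 0.767 to 0.985 between the same sides. Within each side the healthy libraries were above the tumour-bearing ones: 775.1 against 449.7 and 487.8 CPM on one, 303.9 and 273.2 against 217.2 and 199.6 CPM on the other. In the fit without the split the group means of 450.7 ± 281 (SD, n = 3), 338.6 ± 151 (n = 4) and 476 ± 85.2 CPM (n = 4) did not differ beyond the spread (adjusted p 0.413 for tumour minus tumour-bearing spleen, 0.894 for tumour minus healthy spleen and 0.832 for tumour-bearing minus healthy spleen in edgeR's test).

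**Figure D2:**
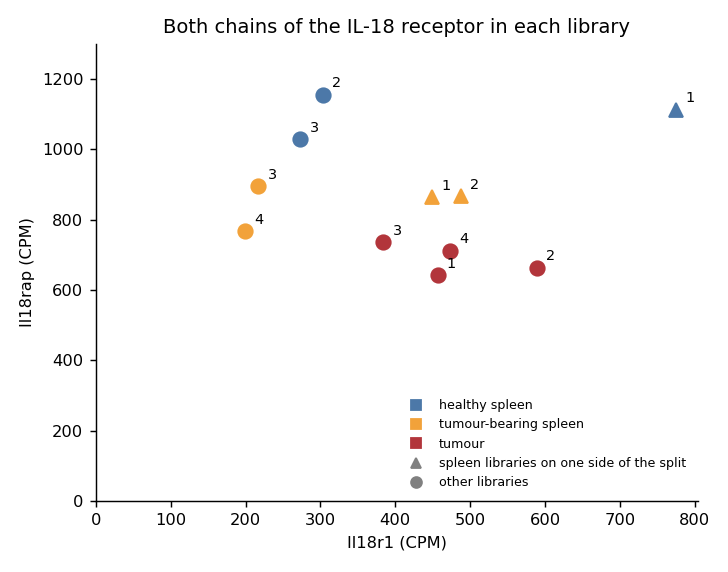
Il18r1 (horizontal axis, CPM) against Il18rap (vertical axis, CPM) in the 11 NK libraries, coloured by group and numbered by replicate; triangles are the 3 spleen libraries on one side of the spleen split. The groups are layered from 642.7 to 1156 CPM along Il18rap, whereas spleen libraries of 1 group spread along Il18r1, from 273.2 to 775.1 CPM in healthy spleens.

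Calls for these genes among the spleens depended on the split. With the 7 spleen libraries fitted alone and the side as a block, tumour-bearing minus healthy spleen was -0.57 for Il18r1 (SE 0.105, adjusted p 0.000309 in edgeR's test), -0.38 for Il18rap (adjusted p 0.0212) and 0.48 for Il2rb (adjusted p 0.00463), and all 3 passed. That fit called 8.34% of its genes, 443 higher (5.35%) and 248 lower (2.99%). The same 7 libraries without the block gave 1.38%, 93 higher (1.12%) and 21 lower (0.254%), with none of the 3 among them. The split was read from these same libraries, so its p-values are not independent of it. Against tumour-bearing spleen replicates 1 and 2 alone Il18r1 in tumours differed by 0.01 (adjusted p 0.988), and against replicates 3 and 4 alone by 1.15 (adjusted p 0.0843). The last 500 bases of the Il18r1 transcript are 38.2% G or C, at the 24.7th percentile of 9616 listed genes (median 44.2%), and those of the other 4 are 45.4% to 50.2%. Whether base composition bears on the Il18r1 levels was not tested. The ratio of Il18rap counts to Il18r1 counts was 1.13 to 1.92 in tumours, 1.44, 3.8 and 3.77 in healthy spleens and 1.92, 1.78, 4.12 and 3.84 in tumour-bearing spleens.

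Il10ra, the ligand-binding chain of the IL-10 receptor, was about as high in both kinds of spleen and lower in tumour NK cells. Its level was 225, 233.3 and 252.6 CPM in healthy spleens, 237.1, 241.1, 266.6 and 276.3 CPM in tumour-bearing spleens, and 109.8, 113, 119.1 and 148.3 CPM in tumours. No tumour library reached any spleen library, and the spleen groups overlapped. Tumour (122.6 ± 17.6 CPM, SD, n = 4) was 2.08-fold lower than tumour-bearing spleen (255.3 ± 19.2, n = 4), a log2 difference of -1.06 (SE 0.13, edgeR's quasi-likelihood adjusted p 3.74e-06). It was 1.93-fold lower than healthy spleen (236.9 ± 14.1, n = 3), a log2 difference of -0.95 (SE 0.14, adjusted p 3.11e-05). The spleen groups differed by 0.11 (95% interval -0.18 to 0.39, adjusted p 0.853). The fall held against each side of the split, at -0.97 (adjusted p 0.000114) and -1.18 (adjusted p 8.9e-06), while a test against a minimum of 2-fold left an adjusted p of 1. Il10rb, the partner chain, was at 178 ± 12.9, 194.9 ± 31.9 and 171.5 ± 20.3 CPM in healthy spleen, tumour-bearing spleen and tumour (SD, n = 3, 4 and 4), and it was not called. The ratio of Il10ra counts to Il10rb counts was 1.2 to 1.55 in healthy spleens, 0.994 to 1.61 in tumour-bearing spleens and 0.561 to 0.83 in tumours. This ratio was not tested.

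Set side by side, tumour minus tumour-bearing spleen called 1 of the 5 genes (Il10ra, lower), where 29% of the 8471 genes tested were called (15.8% higher and 13.2% lower). Tumour minus healthy spleen called 3 of 5 (Il2rb higher, Il18rap and Il10ra lower), where 30.5% of genes were called (16.5% higher and 14% lower). Tumour-bearing minus healthy spleen called 0 of 5 in edgeR, where 1.58% were called (1.23% higher and 0.354% lower). In that comparison 2 of the 5 (Il2rb and Il18rap) had an unadjusted p under 0.05, as did 11.2% of all genes tested, and DESeq2 called 1 (Il18rap), beside 1.85% of all genes (1.49% higher and 0.366% lower). Groups without overlap in CPM were seen for 2, 3 and 2 of the 5 genes in these comparisons, beside 29.7%, 34.8% and 12.2% of all genes tested. By direction, Il18rap and Il10ra were lower without overlap in the first (13.3% of genes lower so, 16.5% higher) and in the second (16.3%), where Il2rb was higher (18.5%), and in the third Il2rb was higher (6.52%) and Il18rap lower (5.71%). The median log2 difference of the 5 genes was -0.02, 0.10 and 0.11, beside 0.001, 0.016 and -0.004 over all genes. The comparisons share libraries pairwise, so their values are not independent.

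**Figure D3:**
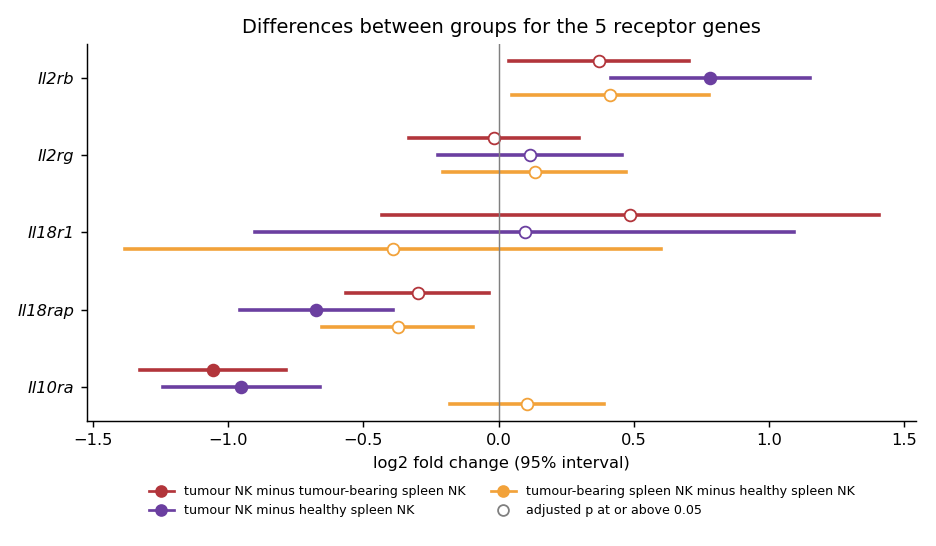
Log2 fold change (horizontal axis) with its 95% interval for each receptor gene in the 3 comparisons; filled points passed an adjusted p of 0.05 and open points did not. Il10ra lies near -1 in both comparisons of tumour with spleen, Il2rb and Il18rap pass in tumour minus healthy spleen, and the intervals of Il18r1 are the widest, reaching from -1.38 to 0.60 in tumour-bearing minus healthy spleen.

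Other cytokine receptor genes were read from a list of 38, of which 19 were in the table and 18 were tested. This list and those below were chosen with earlier results of these data known. Their counts beside the shares of all genes are therefore descriptions, not independent support. In tumour minus tumour-bearing spleen 4 were higher and 2 lower (median 0.29, beside 0.001 over all genes). In tumour minus healthy spleen 5 were higher and 1 lower (median 0.35, beside 0.016). In tumour-bearing minus healthy spleen 1 was higher (median 0.11, beside -0.004). Over all genes tested, 15.8% were called higher and 13.2% lower in the first comparison. These shares were 16.5% and 14% in the second, and 1.23% and 0.354% in the third. Il2ra, the chain that turns the receptor of Il2rb and Il2rg into one of high affinity for IL-2, had 29, 15, 31 and 42 counts in the tumour libraries, 0 in each tumour-bearing spleen library and 1, 0 and 1 in healthy spleens. Its tumour mean of 26.02 ± 9.51 CPM (SD, n = 4) was at least 55.8-fold higher than the level that 3 counts over the tumour-bearing spleen group would give, 0.467 CPM. Over healthy spleens the ratio was 47.2 (95% interval 12.8 to 394, counting error only). Il2ra passed the filter on low counts only through its tumour libraries, so a call as higher in tumours was fixed in advance. It was called in both comparisons (adjusted p 2.85e-07 and 8.68e-06 in edgeR's test) and is among the higher genes counted above. These calls add no support.

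Il21r, which pairs with the common gamma chain to read IL-21, was at 11.8 ± 0.955, 17.58 ± 2.27 and 39.8 ± 9.2 CPM in healthy spleen, tumour-bearing spleen and tumour (SD, n = 3, 4 and 4). It rose in the tumour by 1.13 over tumour-bearing spleen (adjusted p 0.000517 in edgeR's test) and by 1.73 over healthy spleen (adjusted p 4.52e-05). Il15ra, which presents IL-15, stood at 22.29 ± 0.717, 17.49 ± 3.2 and 23.6 ± 2.88 CPM and Il7r, the IL-7 receptor chain, at 42.01 ± 29.1, 30.14 ± 20.5 and 82.96 ± 23.8 CPM, and neither was called. Thus 6 genes of the common gamma chain family were tested, Il2rb and Il2rg included. In tumours 2 of them were higher than in tumour-bearing spleen and 3 higher than in healthy spleen, and none was lower. Il2ra, which passed the filter only through its tumour libraries, is counted in both. Over all genes tested, 15.8% and 16.5% were higher in these comparisons, and 13.2% and 14% lower.

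Ifngr1, the ligand-binding chain of the interferon gamma receptor, had the highest fitted rise of the called receptor genes after Il2ra: 193.3 ± 37.6, 288.3 ± 32.6 and 722.4 ± 123 CPM, with a log2 difference of 1.33 over tumour-bearing spleen (adjusted p 1.88e-06 in edgeR's test) and 1.89 over healthy spleen (adjusted p 1.16e-07). Il12rb1, a chain of the IL-12 and IL-23 receptors, was at 19.23 ± 4.98, 23.78 ± 2.09 and 37.91 ± 8.32 CPM, up by 0.70 (adjusted p 0.0136) and 1.06 (adjusted p 0.00227). The first of these was lost against tumour-bearing replicates 1 and 2 alone (adjusted p 0.104) and without tumour replicate 3 (adjusted p 0.0651). Il12rb2, its partner in the IL-12 receptor, stood at 3.497 ± 2.37, 5.106 ± 2.38 and 5.111 ± 1.44 CPM and was not tested.

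Il27ra, the IL-27 receptor chain, was the receptor gene called among the spleens: 98.83 ± 7.16 CPM in healthy and 153.7 ± 13.6 CPM in tumour-bearing spleens, a rise of 0.63 (adjusted p 0.0168 in edgeR's test). It was at 109.9 ± 5.95 CPM in tumours, 0.49 below tumour-bearing spleen on the log2 scale (log2 difference -0.49, adjusted p 0.00549). The rise was lost without tumour-bearing replicate 4 or any healthy replicate (adjusted p 0.0535 to 0.0908), and the fall against tumour-bearing replicates 1 and 2 alone (adjusted p 0.0583). Sigirr, a receptor of the IL-1 and IL-18 family known to dampen it, was at 131 ± 15.7, 152.7 ± 34.2 and 100.7 ± 11.7 CPM. It was lower in tumour than in tumour-bearing spleen (-0.59, adjusted p 0.00775), but not against replicates 1 and 2 alone (adjusted p 0.166). Il3ra rose by 0.98 (adjusted p 0.0283) and Il17ra fell by 0.39 on the log2 scale (adjusted p 0.0444) in tumour minus healthy spleen. The Il3ra call was lost without healthy replicate 2 (adjusted p 0.241) or tumour replicate 3 (adjusted p 0.125), and the Il17ra call without any of 5 single libraries (adjusted p 0.0638 to 0.215) or with a replicate block (adjusted p 0.0614).

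**Figure D4:**
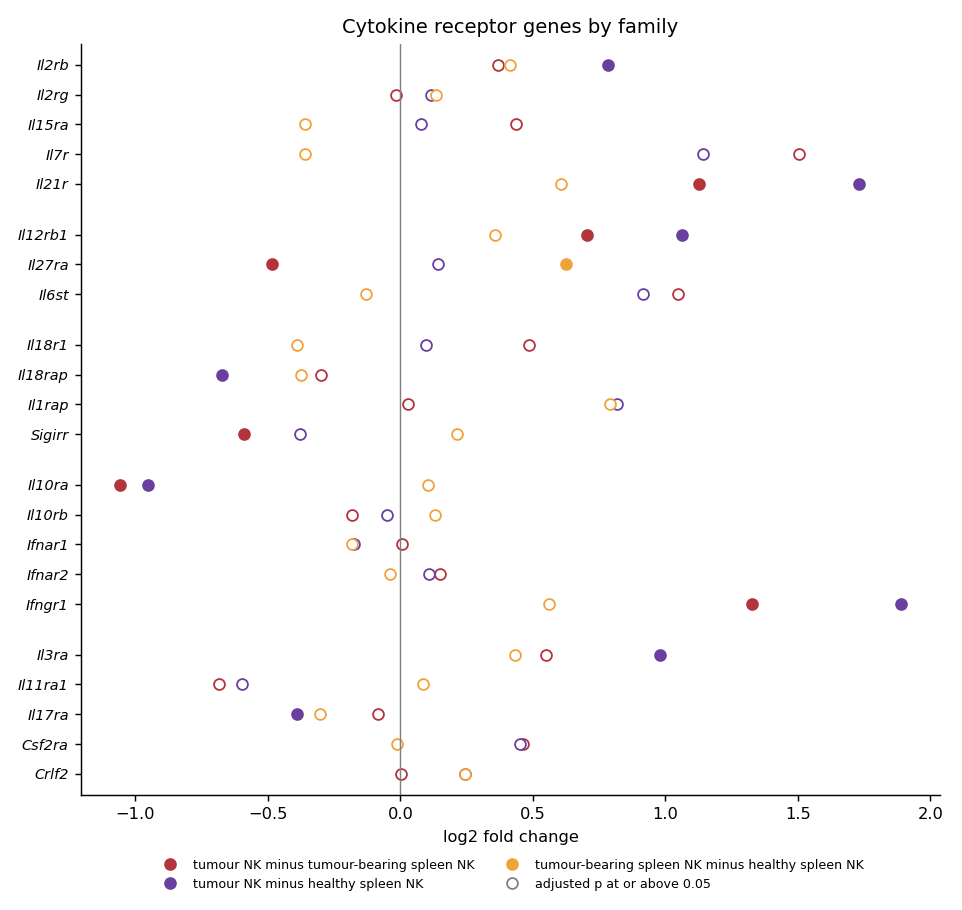
Log2 fold change (horizontal axis) of 22 cytokine receptor genes in the 3 comparisons, grouped by receptor family; filled points passed an adjusted p of 0.05. Il2ra is left out because its spleen counts were 0 to 1; Ifngr1 and Il21r lie farthest to the right, and Il10ra farthest to the left among filled points.

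Downstream of the JAK-coupled receptors, 11 of 11 listed JAK and STAT genes were tested. In both comparisons of tumour with spleen 4 were higher, Stat3 and Jak2 among them, and 1 lower (Tyk2). Of all genes tested, 29% and 30.5% were called in these comparisons. The medians of the 11 were 0.22 and 0.17 beside 0.001 and 0.016 over all genes. None of the 11 was called between the spleens, where only 1.58% of all genes were called. Stat3, the STAT that carries IL-10 and IL-21 signals, was at 172.1 ± 2.01, 187.4 ± 22.1 and 570.3 ± 90.3 CPM in healthy spleen, tumour-bearing spleen and tumour, up by 1.60 (SE 0.14, adjusted p 4.73e-08 in edgeR's test) and 1.73 (SE 0.158, adjusted p 9.34e-08). Tyk2, the kinase that binds the chains of Il10rb and Il12rb1, was at 300.7 ± 41.5, 272.7 ± 33.6 and 142.6 ± 16.8 CPM, with log2 differences of -0.94 (adjusted p 4e-05) and -1.09 (adjusted p 1.61e-05). Jak1 (1536 ± 330, 1240 ± 153 and 1444 ± 115 CPM) and Jak3 (141.3 ± 9.02, 166.4 ± 48.2 and 181.8 ± 43.3 CPM), the kinases bound by the chains of Il2rb and Il2rg, were not called. Nor were Stat5a (41.2 ± 8.59, 35.4 ± 5.41 and 30.2 ± 6.19 CPM) and Stat5b (71.09 ± 5.31, 63.58 ± 8.72 and 67.18 ± 13 CPM), the main STATs of IL-2 and IL-15.

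For IL-18, 11 of 13 listed signalling genes were tested. In each comparison of tumour with spleen 3 were higher and 0 lower (medians 0.40 and 0.29). Of all genes tested, 29% and 30.5% were called in these comparisons, with 15.8% and 16.5% higher. Irak2, a kinase-like relay of the pathway, was at 26.72 ± 7.94, 26.74 ± 2.2 and 125.1 ± 9.4 CPM, up by 2.22 (adjusted p 7.83e-09 in edgeR's test) and 2.30 (adjusted p 4.43e-08). Tab2, an adaptor of the kinase TAK1, rose by 1.21 (adjusted p 0.00019) and 1.08 (adjusted p 0.00132). Myd88, the adaptor that the receptor chains recruit, was at 60.14 ± 10.7, 77.34 ± 13.3 and 102.4 ± 14.9 CPM and rose over healthy spleen by 0.76 (adjusted p 0.00397). Irak4 was not called, and Tollip in tumour minus tumour-bearing spleen (0.43, adjusted p 0.0496) was lost in 16 of 20 other settings. None of the 11 was called between the spleens, beside 1.58% of all genes.

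Among feedback genes, a list of genes that curb cytokine signals and of which some are induced by them, 13 of 15 listed were tested. The list was chosen with earlier results of these data known. Against tumour-bearing spleen 7 were higher and 1 lower (median 0.68), beside 15.8% and 13.2% of all genes. Against healthy spleen 9 were higher and 1 lower (median 1.21), beside 16.5% and 14% of all genes. Cish, a target of STAT5 that restrains IL-15 signalling in NK cells, was at 8.882 ± 4.44, 14.34 ± 8.31 and 191.2 ± 69.8 CPM, up by 3.79 (SE 0.446, adjusted p 0.000116 in edgeR's test) and 4.60 (SE 0.575, adjusted p 0.000173). Socs3, an inhibitor induced by STAT3, was at 30.07 ± 5.6, 33.71 ± 8.75 and 290.1 ± 29.2 CPM, up by 3.09 (SE 0.174, adjusted p 1.16e-10) and 3.22 (SE 0.203, adjusted p 7.77e-10). Dusp1, a phosphatase of MAP kinases, rose by 2.41 and 2.80, Socs2 by 1.76 over tumour-bearing spleen and Socs1 by 1.16 and 2.27. No spleen library reached any tumour library in Cish, Socs3 or Dusp1. Ptpn6, the phosphatase SHP-1, was higher in tumour-bearing than in healthy spleens (470.1 ± 48.3 against 288.1 ± 31.5 CPM, 0.71, adjusted p 0.00913), a call that was lost without healthy replicate 2 (adjusted p 0.093).

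**Figure D5:**
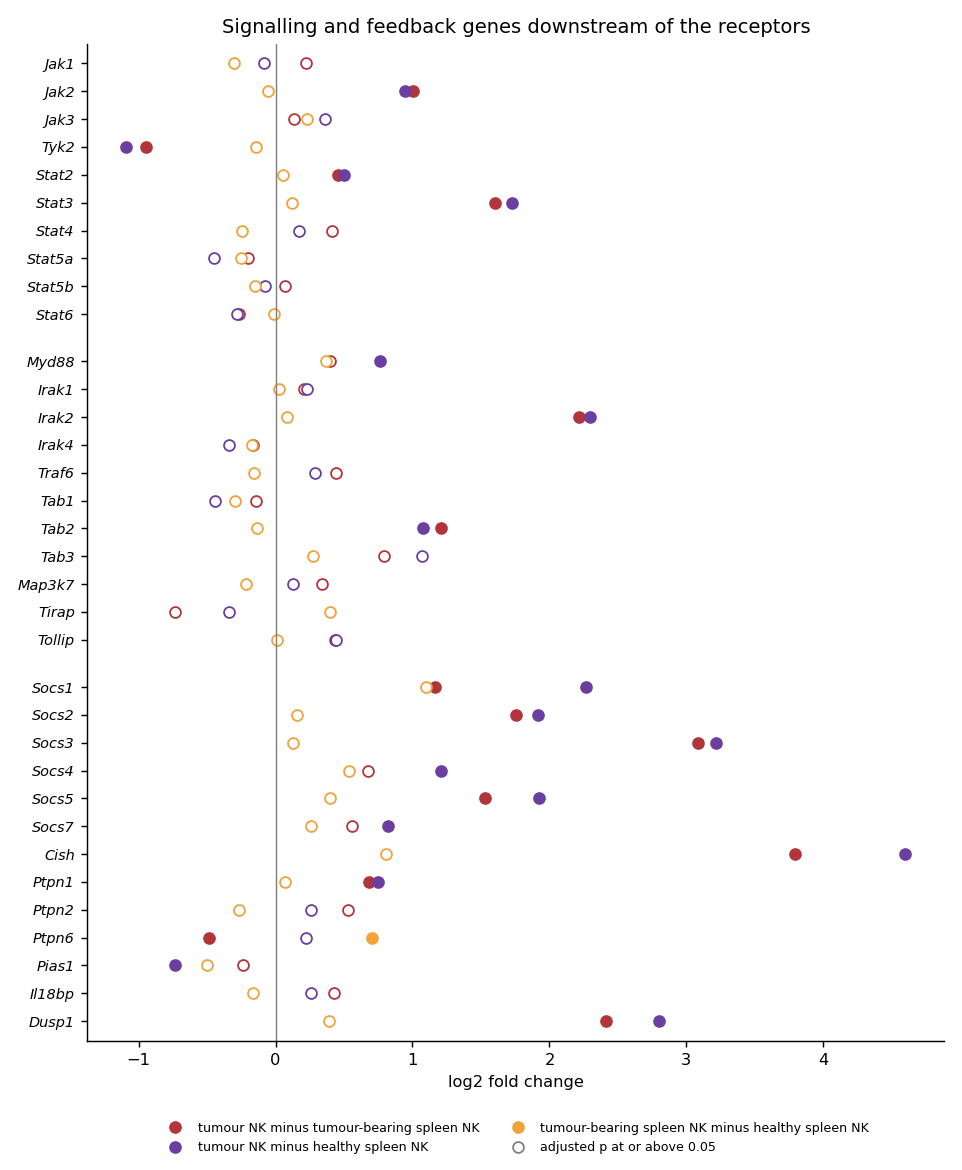
Log2 fold change (horizontal axis) of 34 of the 35 tested signalling and feedback genes in the 3 comparisons, from top to bottom JAK and STAT genes, IL-18 signalling genes and feedback regulators; filled points passed an adjusted p of 0.05. Cish (3.79 and 4.60), Socs3 (3.09 and 3.22), Dusp1 and Irak2 lie farthest to the right, and Tyk2 farthest to the left.

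Genes known to respond to IL-2 or IL-15 were tested for 13 of 14 listed, a list chosen with earlier results of these data known. Against tumour-bearing spleen 8 were higher and 3 lower (median 0.83), beside 15.8% and 13.2% of all genes. Against healthy spleen 8 were higher and 2 lower (median 1.12), beside 16.5% and 14% of all genes. Between the spleens 4 were higher and 0 lower (median 0.42), beside 1.23% and 0.354% of all genes. Those 4 were Tnfrsf9, a costimulatory receptor of activated lymphocytes, Gzmb, a protease of the killing granule, Pim2, a survival kinase, and Ccnd2, a D-type cyclin. They rose by 1.91 (adjusted p 2.59e-05 in edgeR's test), 1.34 (adjusted p 0.000135), 1.01 (adjusted p 0.00104) and 0.74 (adjusted p 0.0132). Tnfrsf9 went from 26.96 ± 3.33 to 103.3 ± 17.1 and on to 306.1 ± 53.1 CPM from healthy spleen to tumour, Gzmb from 447.3 ± 93.4 to 1137 ± 70.9 and 2131 ± 221 CPM, and Pim2 from 104.7 ± 6.69 to 212.5 ± 32.4 and 555.4 ± 41.7 CPM. Each of these 3 was called in all 3 comparisons, and in each the groups were ordered without overlap as for Il18rap in the opposite direction. Ccnd2 was lower in tumour than in tumour-bearing spleen (-0.44, adjusted p 0.0241), and it lost its call among the spleens without healthy replicate 2 (adjusted p 0.169) or 3 (adjusted p 0.0942).

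Genes known to respond to IL-10 were tested for 6 of 9 listed, a list also chosen with earlier results of these data known. In tumours 6 were higher than in either kind of spleen (medians 1.35 and 1.92), beside 15.8% and 16.5% of all genes. Il10ra was lower there. None of the 6 was called between the spleens, beside 1.58% of all genes. They were Socs3, Etv3 (1.64 and 2.00), Nfil3 (1.62 and 2.04), Bcl3 (1.09 and 1.83), Gadd45g and Sbno2, with adjusted p of 0.0219 or less in edgeR's test. Socs3 and Nfil3 stand on other lists here too, and these genes answer to many signals besides IL-10. Of 19 listed cytokines that act on these receptors 4 were in the NK table and 0 were tested. Il15, the ligand that Il2rb and Il2rg serve in resting NK cells, was at 1.599 ± 0.0551, 1.036 ± 0.382 and 2.667 ± 2.02 CPM, levels near or under what 3 counts give.

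Across the 11 NK libraries the genes whose log2 level followed each receptor gene most closely were read among 6477 genes by Pearson's r. For Il10ra they were Lfng (r = 0.990), Cma1 (0.985) and Klrg1 (0.981), a receptor of mature NK cells at 512.2 ± 37.5, 553.8 ± 62.3 and 179.3 ± 29.6 CPM in healthy spleen, tumour-bearing spleen and tumour. For Il18rap they were Rap1gap2 (0.978), Arl4c (0.961) and Apobec3 (0.958), and for Il2rb Arpc3 (0.960) and Itm2c (0.954) were among the closest. Arl4c was at 300.8 ± 16.5, 198.9 ± 13.7 and 117.3 ± 11.5 CPM and Arpc3 at 520.8 ± 80.3, 723.8 ± 54.2 and 929.9 ± 142 CPM in the same order of groups. For Il18r1 they were Zfp868 (0.979), Zfr (0.974) and Tle4 (0.968), and for Il2rg Fbxl6 (0.951), Srrt (0.935) and Scamp2 (0.918). Among the receptor genes themselves r was -0.89 for Il2rb with Il18rap, 0.73 for Il18rap with Il10ra, 0.62 for Il2rb with Il2rg, -0.57 for Il2rb with Il10ra and -0.11 for Il18r1 with Il18rap. The points share group, library depth and the spleen split, and these correlations are descriptions without a test.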

How the data were processed

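RNA from sorted NK cells (11 libraries) and from sCAFs (3 libraries) was sequenced at its 3' ends, per the labels' protocols. CAFs are cancer-associated fibroblasts, and the sample titles do not spell out the s. The submitters' processing notes name bcl2fastq, STAR 2.4.2a, HTSeq and the build mm10; the annotation, strand setting and use of molecular identifiers are not given in the sources used here. The authors deposited raw counts by gene symbol, 1 table for NK and 1 for sCAF libraries. The highest count of a listed NK gene was never under 6, so low genes are missing from that table. In the header of the NK table a run of spaces stood between the names of tumour replicates 3 and 4, and columns were read in header order.

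Counts were tested with edgeR 4.0.16 under R 4.3.3. The filterByExpr step on group kept 8471 of 10210 genes (83%). Libraries were scaled by TMM, and 1 robust quasi-likelihood model with group as its only term was fitted to the 11 NK libraries. A call is a Benjamini-Hochberg adjusted p below 0.05, taken over the whole table; the scripts were tested on simulated data. Intervals are 95%. Levels are CPM on TMM library sizes, and sCAF levels are CPM on raw totals. Limits for a count of 0 are 3 counts, on raw totals for single libraries and on TMM sizes for the group limit of Il2ra. These limits and the counting intervals cover counting error only. Depth was 559688 to 1966963 counts per NK library and 1318067 to 2230475 per sCAF library. Replicates correlated across genes with r of 0.912 to 0.977. DESeq2 1.42.0, limma 3.58.1 (voom), other scalings, no filter, fewer libraries and a replicate block were alternatives.

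The members and lists were chosen with earlier results of these data known. Genes named are the 5 members, the 3 genes most correlated with each (log2 of CPM plus 1, mean of at least 20 counts, no Gm or Rik names), called receptor genes, set partner genes, and up to 4 called genes per other list and comparison with the largest change; Gadd45g, Sbno2 and ligands were added afterwards to complete small counts. Of the genes so chosen, 2 are not reported here. Promoter sequences are from RefSeq's GRCm38 table, and positions from GENCODE M21 (GRCm38).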

Additional observations from a re-analysis of the deposited data

Results flagged for a closer look

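Of 92 groups of 4 libraries tested over 46 genes, 5 held a library far from its fellows, about what chance gives at 1 group in 20. In tumours, Irak2 was at 139.1 CPM in replicate 2 beside 118.9 to 121.7 in the others, Lta at 48.49 CPM in replicate 4 beside 29.46 to 30.43, and Il17ra at 278.6 CPM in replicate 4 beside 249.2 to 251.9. In tumour-bearing spleens, Gzmb was at 1031 CPM in replicate 1 beside 1162 to 1181, and Ccnd2 at 611.8 CPM in replicate 2 beside 537.4 to 542.5. None of the 5 receptor genes was among them.

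Of the 5 receptor genes 3 had values in the table of sCAF libraries, which no comparison used, above the limit that a count of 0 allows in at least 1 library. Il18rap had 48, 27 and 17 counts, with 21.5 CPM as its highest level. Il2rg had 3, 7 and 16 counts, with 12 CPM as its highest, and Il2rb had 6, 2 and 1 counts, with 2.69 CPM as its highest. Ptprc, the gene of CD45 against which these cells were sorted, had 4, 0 and 2 counts in the same libraries. Cd3e, a T cell gene, had 3, 7 and 7 counts, and Csf1r, a macrophage gene, had 13, 6 and 11. Ncr1 and Gzma, from the NK markers, and Gzmb were not listed there. Which cells carried the receptor counts was not tested. Il18r1 and Il10ra were not listed in that table and were not analysed there.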

How the results depend on the processing

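Among the receptor genes, the calls of Il2rb, Il18rap and Il10ra in tumour minus healthy spleen held in all alternatives run for that comparison. A 2-fold minimum was not run there, and the fitted changes were 1.72-fold, 1.6-fold and 1.93-fold. The call of Il10ra in tumour minus tumour-bearing spleen held in 19 of 20 (-1.18 to -0.97), the exception being a 2-fold minimum (-1.06, adjusted p 1). In tumour minus tumour-bearing spleen, Il18rap passed under upper-quartile scaling (-0.40, adjusted p 0.0179), raw library totals (-0.42, adjusted p 0.00933) and DESeq2 (-0.31, adjusted p 0.0126). Leaving out single libraries gave 0.28 to 0.46 for Il2rb and -0.10 to 0.036 for Il2rg, which was 0.17 against tumour-bearing replicates 1 and 2. In tumour minus healthy spleen, uncalled genes changed sign: Il2rg was -0.078 with raw library totals and -0.053 to 0.24 without single libraries, and Il18r1 was -0.014 with upper-quartile scaling, -0.14 with raw library totals, -0.70 against healthy replicate 1 alone and -0.16 to 0.69 without single libraries. In tumour-bearing minus healthy spleen, the spleen libraries alone with the side of the split as a block gave 0.48 for Il2rb, -0.57 for Il18r1 and -0.38 for Il18rap, DESeq2 gave -0.38 for Il18rap, and leaving out single libraries gave -0.007 to 0.25 for Il2rg and -0.65 to 0.24 for Il18r1. The cause was not tested.

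Counts of called genes moved as follows. For tumour minus tumour-bearing spleen (1338 higher, 1115 lower) a 2-fold minimum gave 334 and 57, raw library totals 1696 lower, and replicates 1 and 2 alone 546 lower. For tumour minus healthy spleen (1399 and 1183) raw library totals gave 2002 lower, healthy replicate 1 alone 761 and 338, and single libraries left out 782 to 1406 lower, the lowest without healthy replicate 2. For the spleens (104 and 30) the spleen libraries alone gave 93 and 21, and with the side as a block 443 and 248, raw library totals 47 lower, and single libraries left out 35 to 100 higher and 7 to 25 lower. Raw library totals shifted the median of all genes by -0.12 and -0.20 in the tumour comparisons, and upper-quartile scaling by -0.10 over healthy spleen; the share of higher genes among calls fell from 54.5% to 37.7%, and from 54.2% to 32.8% and 42.4%. Of 60 named calls outside the 5 genes 34 held throughout, 15 were lost only with a 2-fold minimum or healthy replicate 1 alone, and none changed sign.

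The labels do not say whether libraries with the same replicate number share an animal. Same-numbered libraries of tumour-bearing spleen and tumour deviated together with r of -0.05 to 0.28, beside -0.24 to 0.15 for other-numbered ones. Between healthy spleen and tumour r was -0.19 to 0.04, beside -0.25 to 0.29. Between the spleens it was -0.35 to 0.49, beside -0.51 to 0.52. These ranges overlap and cannot decide whether the numbers pair the libraries. With the number as a replicate block no call of the 5 genes changed, the call of Il17ra was lost (-0.37, adjusted p 0.0614), and 18 genes in place of 30 were lower in tumour-bearing than in healthy spleens. The 2-fold minimum, run only for tumour minus tumour-bearing spleen, and healthy replicate 1 alone were added after the data were seen. Depth limits genes such as Il2ra in spleens, where counts were 0 or 1.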

Other observations

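The sCAF libraries held counts of ligands that act on the receptors described. Il18 had 58, 27 and 23 counts (21.25 ± 4.42 CPM on raw totals, SD, n = 3) and Il15 had 33, 24 and 15 counts (14.76 ± 3.47 CPM), while Il10 had 6, 4 and 0 counts (1.908 ± 1.66 CPM). Of the same cytokine list Il11 (58.55 ± 10.6 CPM) and Il23a (39.04 ± 10.6 CPM) were also counted there. Col1a2, a collagen gene, had 398, 487 and 552 counts, and the macrophage genes C1qa and Lyz2 had 37, 11 and 25 and 43, 18 and 26 counts. These levels were not compared with another group, and the table was counted separately from that of the NK libraries.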
